A study of Mus musculus with 6 samples.

Results

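The Ube2 genes of the mouse encode E2 enzymes, which carry ubiquitin or a ubiquitin-like protein between the E1 enzyme that activates it and the E3 ligase that picks the target. They were followed in CD4+ T cells before and after activation. All genes whose symbol begins with Ube2 were taken as members, apart from 1 gene that is not reported here, which gave 32 of the 14379 genes in the deposited table. Members were taken from the table by symbol, whatever their values. The question was which E2 genes changed when naive CD4+ T cells were activated, and how *Ube2c* and *Ube2s*, the E2 enzymes of mitosis, compared with the other 30.

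The naive group was made of 3 libraries of CD4+ T cells at day 0, sorted from lymph nodes and spleen of wild-type C57BL/6 mice. The activated group was made of 3 libraries of the same kind of cell at day 2, after stimulation with plate-bound anti-CD3 and soluble anti-CD28 under nonpolarizing conditions. All cells were wild type. The methods give young adult mice of both sexes, and the sex behind each library is not stated in the sources used here. No library held unstimulated cells kept in culture, so that the effects of stimulation and of days in culture cannot be told apart. In these bulk samples, fewer cells of a type and less RNA per cell likewise cannot be told apart.

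Values are log2 expression as deposited, headed FPKM (fragments scaled to gene length and library size) and named for ComBat, a batch correction. The depth is unknown because no read counts were analysed, and many genes share a base value of 1.99 on this scale. Of the 14379 genes, 10173 exceeded the base value by 1 linear unit or more in 3 or more libraries and entered a limma test, in which a gene was called when it changed 1.5-fold or more with a Benjamini-Hochberg adjusted p below 0.05. Naive replicates 1 and 2 shared 352 values equal within 1e-09 away from the base value and activated replicates 2 and 3 shared 670, none of them in a Ube2 gene, while naive replicate 3 and activated replicate 1 each stood apart from both others of the same group. Of the markers for CD4 T cells, 7 of 10 were in the table, *Cd4* and *Cd3e* among them, and 6 of these 7 were lower in activated cells, whereas 6 of 7 activation markers were higher. Summed over their lists, in linear units above the base value, B cell markers reached 17 to 54 in naive and 11 to 20 in activated libraries, myeloid markers 162 to 238 and 155 to 167, and erythroid markers 6 to 83 and 6 to 7. The sums of CD8 T and NK cell markers (155 to 204 and 190 to 273) and of regulatory T cell markers (164 to 205 and 260 to 516) were higher in activated libraries, but most of their genes were not. Of 8 tested CD8 T and NK cell markers 1 was higher (*Nkg7*, log2 fold change 1.99) and 5 lower, with a median log2 fold change of -1.06. Of 7 regulatory T cell markers 1 was higher (*Il2ra*, also an activation marker, 2.26) and 4 lower (*Foxp3*, -2.45, among them), with a median of -0.94. The part of other cells in the results below was not tested.

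An E2 enzyme holds its modifier on a cysteine of a conserved domain. Which kind of chain is built, and on which target, depends on the pairing of the E2 with its ligase. Some E2 enzymes start chains on many targets, some only lengthen them through a given lysine of ubiquitin, and a few serve other modifiers such as SUMO, NEDD8 or ISG15. *Ube2c* and *Ube2s* work with the anaphase-promoting complex (APC/C), the ligase that marks cyclin B and securin for destruction so that mitosis can end: in human cells UBE2C places the first ubiquitin molecules and UBE2S lengthens the chain.

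The genes of both mitotic enzymes carry, upstream of their RefSeq start sites, letters of the cell cycle genes homology region (CHR, TTTGAA or TTCGAA), an element known from promoters of late cell cycle genes. It was searched on both strands of the 250 bases before each RefSeq start site (GRCm38.p6) together with the CCAAT box, and 25 of the 32 members were matched in the promoter table. CHR letters stood before 5 of these 25 genes (*Ube2c*, *Ube2d2b*, *Ube2f*, *Ube2s* and *Ube2z*), against 17.1% of all 32841 promoters. CCAAT stood before 6 of 25, against 33.9% of all promoters, and both together before 3 (*Ube2c*, *Ube2d2b* and *Ube2f*), against 6.0%. The E2F letters GGCGGGAA or TTTGGCGC stood before 4 of the 25 (*Ube2a*, *Ube2e2*, *Ube2q1* and *Ube2v1*), against 2.2%. The stretches below are shown for the mitotic pair and for *Ube2f*, which holds the same letters, was chosen after values were seen and did not pass the test described later. Capitals mark CCAAT and CHR letters on either strand (ATTGG and TTCAAA are their reverse forms), and each is written 5′ to 3′ on the strand of the gene.
Ube2c, chr2:164769701-164769905, plus strand, bases -228 to -24: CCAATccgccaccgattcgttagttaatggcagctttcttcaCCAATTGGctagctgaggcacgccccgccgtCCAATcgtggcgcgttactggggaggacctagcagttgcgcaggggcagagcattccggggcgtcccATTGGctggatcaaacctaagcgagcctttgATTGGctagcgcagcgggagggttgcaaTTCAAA
Ube2f, chr1:91250128-91250268, plus strand, bases -176 to -36: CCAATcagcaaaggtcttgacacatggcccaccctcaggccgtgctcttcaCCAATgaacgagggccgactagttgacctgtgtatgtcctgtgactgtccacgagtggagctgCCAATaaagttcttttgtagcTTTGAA
Ube2s, chr7:4812485-4812514, minus strand, bases -174 to -145: tcacaaactgggTTCGAActtctgctacta

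In *Ube2c* the CHR letters lie close to the start site, at -29 to -24, behind a row of CCAAT letters, of which one pair overlaps. They lie inside the first GENCODE exon of the gene, which begins before the RefSeq start site. In *Ube2s* they lie farther off, at -162 to -157, with no CCAAT letters in the window, and likewise inside a GENCODE exon of the gene. In *Ube2f* the order of letters is like that of *Ube2c*, with CHR at -41 to -36. A match is a run of letters and not a binding site.

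Of the 32 members, 30 passed the filter on low values. *Ube2d2b*, a retrogene of the *Ube2d* family, stood at 1.99 in all naive libraries and at 2.05 to 2.20 in activated ones, and *Ube2ql1* at 1.99 to 2.00 in all 6, both too low to test. Among the 30 tested, 10 were higher and 7 were lower in activated cells and 13 were not called, which is 56.7% called against 52.8% of all genes tested (31.2% higher and 21.6% lower). The median log2 fold change of the members was 0.30, against 0.13 for all genes tested, and the median size of the change regardless of direction was 0.65 against 0.62. A change of at least 2-fold was called in 8 members, 5 higher and 3 lower, against 30.4% of all genes. As a family, the share of Ube2 genes called was thus near the background, and the results lie in which members moved and how far. Under upper-quartile scaling the split was 6 higher and 7 lower, and under quantile normalization it was 7 higher and 9 lower.

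**Figure D1:**
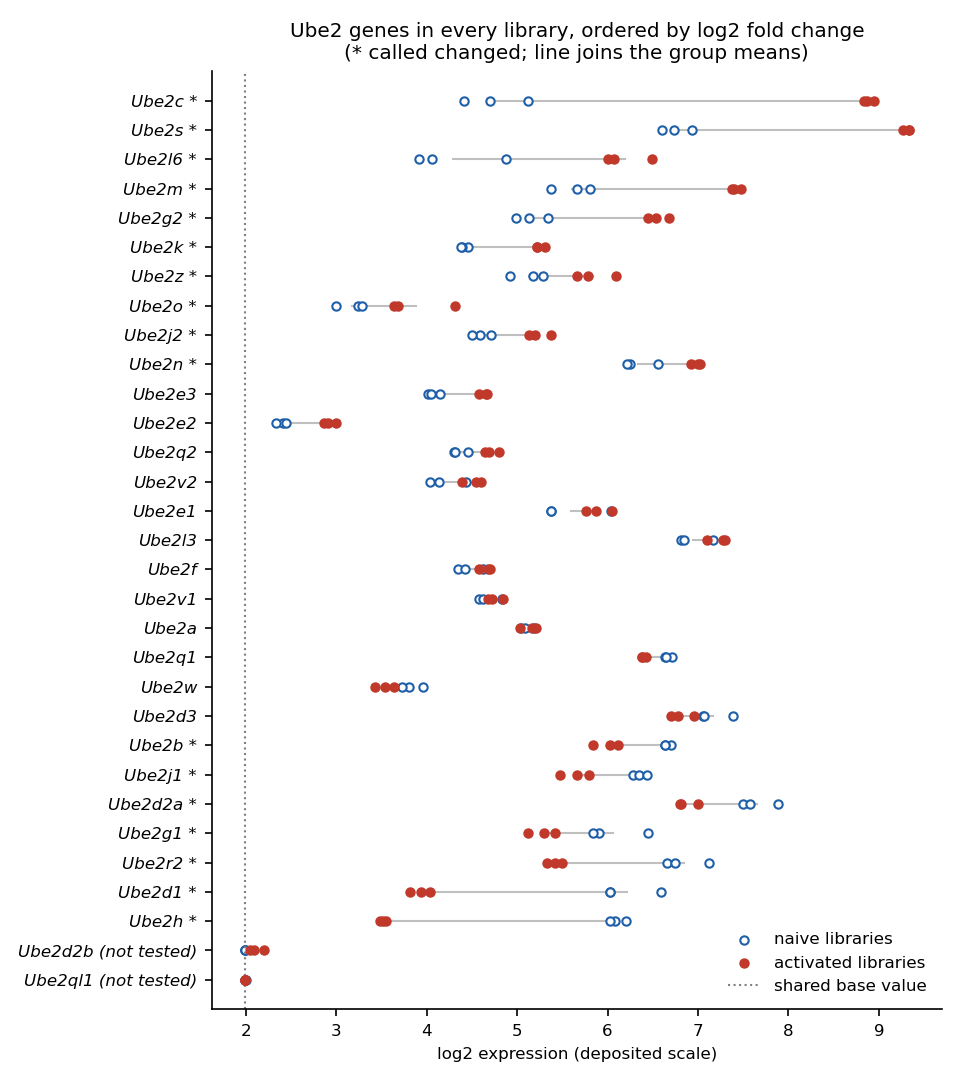
Log2 expression (horizontal axis, deposited scale) of 31 Ube2 genes in each of 3 naive libraries (open circles) and 3 activated libraries (filled circles), ordered from the highest to the lowest log2 fold change, with a line joining the group means, an asterisk at each called gene and a dotted line at the base value of 1.99. The activated libraries of *Ube2c* and *Ube2s* lie at 8.83 to 9.33, to the right of every other point, and those of *Ube2h* and *Ube2d1* lie at 3.48 to 4.04, far left of their naive libraries.

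*Ube2c* had the largest increase of the family. The gene lies on the plus strand of chromosome 2, at 164769898 to 164778822 in GRCm38/mm10. Its log2 expression was 4.70, 5.12 and 4.41 in the naive libraries and 8.83, 8.87 and 8.94 in the activated libraries. The groups were 3.71 apart at their nearest libraries, and the activated libraries were far closer to each other (SD 0.06, n = 3) than the naive ones (SD 0.36, n = 3). The log2 fold change was 4.14 (standard error, SE, 0.18, limma adjusted p = 1.6e-07), or 17.6-fold on the deposited scale and 20-fold in linear units above the base value. It ranked 18 among all 10173 genes by increase, and its level rose from rank 3620 to rank 244. *Tnnc2*, a muscle troponin gene on the opposite strand, shares 592 exonic bases with *Ube2c*, but stood at only 1.99 to 2.30 in the 6 libraries.

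*Ube2s* was already among the more abundant members in naive cells. It lies on the minus strand of chromosome 7 from 4794546 to 4812590. Its log2 expression was 6.73, 6.93 and 6.60 in the naive and 9.27, 9.33 and 9.33 in the activated libraries. Every activated library was thus at least 2.34 above every naive one. The log2 fold change was 2.56 (SE 0.13, limma adjusted p = 3.8e-07), or 5.88-fold on the deposited scale. *Rpl28*, a ribosomal protein gene on the opposite strand, shares 183 exonic bases with *Ube2s*. It stood far higher, at 11.55 to 11.94 in the 6 libraries, with a log2 fold change of 0.05. Whether counting used strand is not stated in the sources used here, so that the level of *Ube2s*, above all in naive cells, is uncertain to that extent. On this per-length scale *Ube2s* moved from the 5th to the highest level of the 32 members and *Ube2c* from the 19th to the next place. For either gene, the exact two-sided permutation test over the 6 libraries gave p = 0.1, the smallest that 3 against 3 libraries allow.

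The level of *Ube2c* relative to *Ube2s* also shifted. The log2 ratio of *Ube2c* to *Ube2s* was -2.03, -1.81 and -2.19 in naive libraries and -0.44, -0.46 and -0.39 in activated ones, a change of 1.58 (SE 0.11, exact two-sided permutation test, p = 0.1). The mean of both genes lay 0.44, 0.67 and 0.28 above the median of the 28 other tested members in the naive libraries and 3.62, 3.68 and 3.86 above it in the activated ones. The median of the others was 5.23 to 5.35 in naive and 5.28 to 5.44 in activated libraries, ranges that overlap. By fold changes, the mean of the mitotic pair exceeded the median of the others by 3.06 on the log2 scale. This is a description of a chosen pair, with no test.

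The make-up of the family changed accordingly. In linear units above the base value, *Ube2c* and *Ube2s* together made up 7.99%, 9.20% and 6.01% of the summed level of all 32 members in the naive libraries, and 39.8%, 42.0% and 43.4% in the activated libraries. The sum over all members was 1559, 1621 and 1834 in naive and 2678, 2632 and 2598 in activated libraries. Without the mitotic pair it was 1434, 1472 and 1724 against 1611, 1527 and 1471, where the groups overlap. The *Ube2d* genes, the largest share in naive cells at 23.3% to 26.7%, held 8.36% to 9.12% in activated cells.

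**Figure D2:**
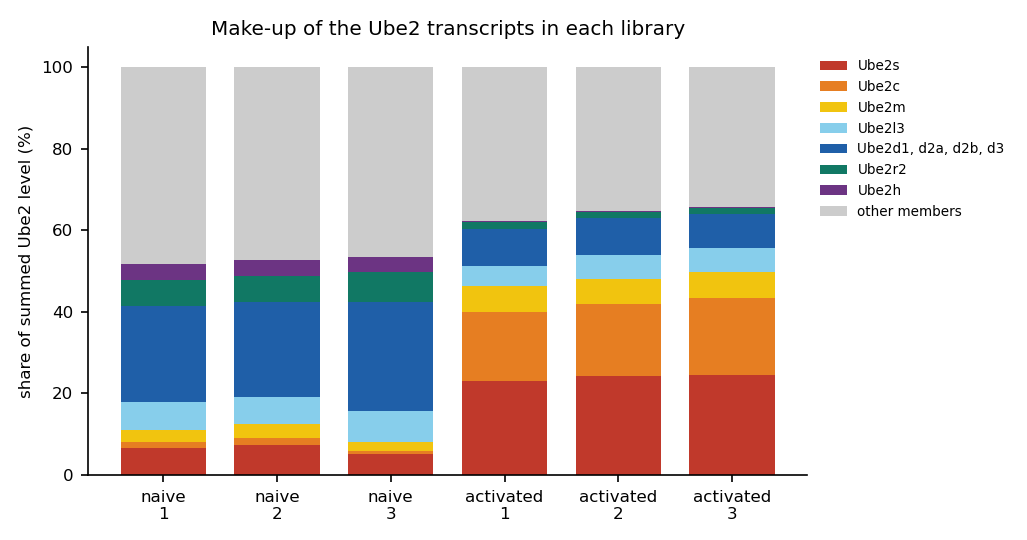
Share (vertical axis, percent) of each Ube2 gene or gene group in the summed level of all 32 members, in linear units above the base value, for each of the 6 libraries. *Ube2c* and *Ube2s* together fill 6.01% to 9.20% of the naive and 39.8% to 43.4% of the activated bars.

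Partners of the mitotic pair moved unequally. Of 17 genes for APC/C subunits, coactivators and the inhibitor Emi1, 8 were higher, 0 lower and 9 not called. This is 47.1% called, against 52.8% of all genes tested, and the median log2 fold change was 0.56. *Cdc20*, the coactivator of early mitosis, rose by 4.76 on the log2 scale (SE 0.19, limma adjusted p = 9.7e-08), and *Fzr1*, the coactivator of late mitosis and G1 phase, by 1.66. *Fbxo5*, which encodes Emi1, rose by 2.05. Among the subunits *Anapc15* had the largest called change, a rise of 1.24. Of 20 genes for proteins that the APC/C marks, 19 were higher and 0 lower, or 95% called, with a median of 3.14. *Ccnb1*, cyclin B1, rose by 4.31, *Rrm2*, a subunit of ribonucleotide reductase, by 4.08, *Plk1*, a mitotic kinase, by 3.81 and *Ccna2*, cyclin A2, by 3.65. *Pttg1*, which encodes securin, was the one not called, at 5.11 to 5.62 in naive and 5.37 to 5.72 in activated libraries. All 8 proliferation markers, a list that shares *Ccnb1* and *Aurkb* with the APC/C substrates, rose, *Cdk1* by 4.67 and *Bub1b* by 3.64. How far the increase of *Ube2c* and *Ube2s* went with the share of dividing cells was not tested.

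Of the 5 members that serve modifiers other than ubiquitin, 3 were higher and 0 lower. This is 60% called, near the 52.8% of all genes tested (31.2% higher and 21.6% lower). *Ube2l6* carries ISG15, a modifier made in response to interferon. Its log2 expression was 3.92, 4.06 and 4.88 in naive and 6.49, 6.01 and 6.07 in activated libraries. Naive replicate 3 lay highest in its group, and the groups were 1.12 apart. The log2 fold change was 1.90 (SE 0.25, limma adjusted p = 1.0e-04).

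The other genes of ISG15 conjugation went the opposite way. Of 6 such genes 0 were higher and 5 lower, with a median log2 fold change of -1.62. That is 83.3% called, against 52.8% of all genes tested. *Isg15* itself stood at 6.43, 6.44 and 6.61 in naive and at 5.46, 3.89 and 3.97 in activated libraries, and fell by 2.05 on the log2 scale (limma adjusted p = 6.5e-04). Activated replicate 1 held the highest *Isg15* level of its group, still below every naive library. *Uba7*, the E1 enzyme for ISG15, fell by 1.81, *Herc6*, its main ligase in mice, by 1.43, and *Usp18*, the protease that removes ISG15, by 1.94. The log2 ratio of *Ube2l6* to *Uba7* was -1.45, -1.22 and -0.11 in the naive libraries. It was 2.99, 2.59 and 2.77 in the activated libraries, a change of 3.71 (SE 0.43, exact two-sided permutation test, p = 0.1). *Ube2l6* was thus the one gene to rise among those listed for this system.

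*Ube2m*, the E2 enzyme that places NEDD8 on most cullins, stood at 5.66, 5.81 and 5.37 in naive and at 7.47, 7.37 and 7.40 in activated libraries. Every activated library was at least 1.56 above every naive one. It rose by 1.80 on the log2 scale (SE 0.14, limma adjusted p = 4.3e-06) and went from the 14th to the 3rd level of the family. *Ube2f*, the other NEDD8 E2, which serves cullin 5 through *Rnf7*, had overlapping groups, 4.35 to 4.62 and 4.58 to 4.70, and a log2 fold change of 0.19 (SE 0.13, limma adjusted p = 0.20). The log2 ratio of *Ube2m* to *Ube2f* rose from 1.15 ± 0.35 (SD, n = 3) to 2.76 ± 0.08 (SD, n = 3). *Nedd8* rose by 1.19 and *Uba3*, the catalytic subunit of its E1 enzyme, by 0.94, whereas *Nae1*, the other part of that E1, had a log2 fold change of 0.33, below 1.5-fold. Of 18 tested genes for further NEDD8 factors and the cullin-RING core, 5 were higher and 2 lower, with a median of 0.11. The share called, 38.9%, was below the 52.8% of all genes tested. *Cops5*, the subunit of the COP9 signalosome that removes NEDD8, rose by 1.56, *Dcun1d5*, a cofactor of NEDD8 transfer, by 1.28 and *Cul7* by 1.24, and *Cul3* fell by 1.12.

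In the SUMO system the E1 genes rose, *Uba2* by 1.42 and *Sae1* by 0.82, as did the modifier genes *Sumo3* by 0.94 and *Sumo2* by 0.74. A list of 13 genes held SUMO ligases, SUMO proteases and *Rangap1*, the best-known SUMO target at the nuclear pore. Of these 13, 4 were higher, *Rangap1* among them, and 2 lower, or 46.2% called against 52.8% of all genes tested. *Rangap1* was up by 1.92, the nucleolar protease gene *Senp3* up by 1.43, *Pias1* down (log2 fold change -1.34) and *Senp7* down (log2 fold change -1.20). *Ube2z*, which takes ubiquitin or FAT10 from *Uba6*, stood at 5.18, 5.29 and 4.92 in naive and at 6.09, 5.66 and 5.78 in activated libraries. It rose by 0.71 (limma adjusted p = 0.0026), a call lost under quantile normalization (0.49), under upper-quartile scaling (0.50) and without naive replicate 3 and activated replicate 1 (0.49). *Uba6* itself had a log2 fold change of 0.49.

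**Figure D3:**
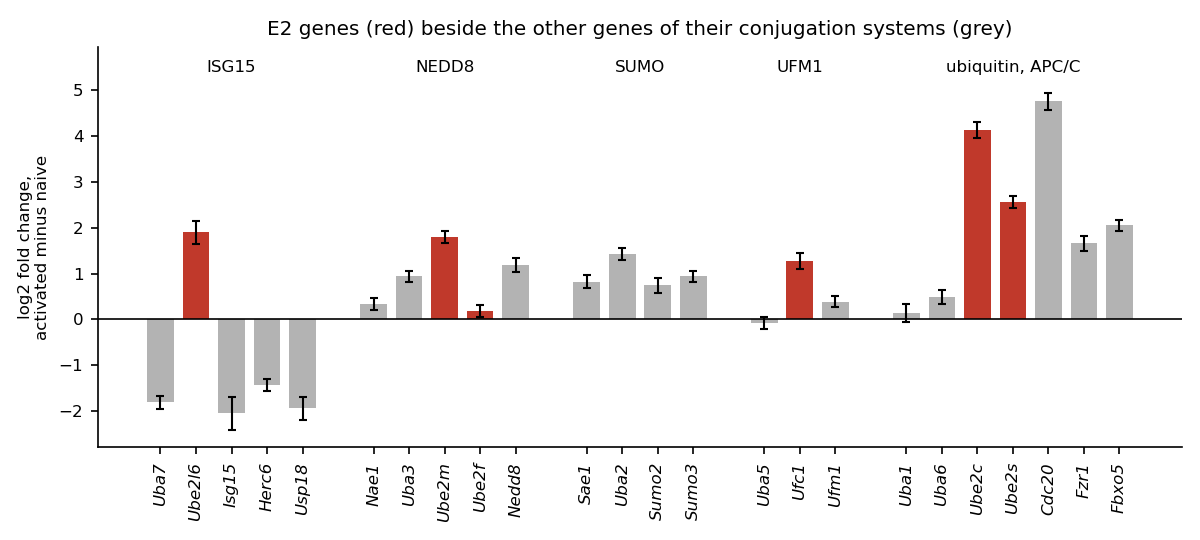
Log2 fold change (vertical axis, activated minus naive, bars with standard errors from limma) of the E2 genes in red and of E1, modifier, ligase and protease genes in grey, grouped by modifier. *Ube2l6* stands at 1.90 beside *Uba7*, *Isg15*, *Herc6* and *Usp18* at -1.43 to -2.05, whereas *Ube2m*, *Uba3* and *Nedd8* all stand above 0, and the E2 gene *Ufc1* of the UFM1 system stands at 1.27.

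The largest decrease of the family was that of *Ube2h*, the E2 enzyme of the CTLH ligase, best known from maturing red cells. It lies on the minus strand of chromosome 6 from 30211289 to 30304539. Its log2 expression was 6.08, 6.03 and 6.20 in naive and 3.48, 3.55 and 3.52 in activated libraries. Replicates of either group lay close together, and the groups were 2.48 apart. It fell by 2.59 on the log2 scale (SE 0.12, limma adjusted p = 2.0e-07), to a level 6.01-fold lower on the deposited scale and 8.68-fold lower in linear units above the base value. By decrease it ranked 133 among the 10173 genes.

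*Ube2d1* followed. The *Ube2d* enzymes start chains with a wide range of ligases, and 3 of the 4 family genes in the table were expressed. *Ube2d1* stood at 6.03, 6.03 and 6.59 in naive and at 3.94, 4.04 and 3.82 in activated libraries. It fell by 2.28 on the log2 scale (SE 0.17, limma adjusted p = 3.1e-06), 4.87-fold on the deposited scale. *Ube2d2a*, the member with the highest naive level, stood at 7.50, 7.57 and 7.88 in naive and at 7.00, 6.81 and 6.80 in activated libraries and fell by 0.78 (limma adjusted p = 9.3e-04). *Ube2d3* stood at 7.05, 7.07 and 7.39 in naive and at 6.78, 6.95 and 6.70 in activated libraries. Its log2 fold change of -0.36 (limma adjusted p = 0.045) was below 1.5-fold. Relative to *Ube2d3*, the log2 ratio of *Ube2d1* was -1.02, -1.04 and -0.80 in naive and -2.84, -2.91 and -2.88 in activated libraries, a change of -1.92 (SE 0.08, exact two-sided permutation test, p = 0.1). In naive cells the 3 genes thus lay within 1.54 log2 units of each other in any library, with *Ube2d1* lowest, and in activated cells *Ube2d1* lay at least 2.77 below the other two.

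Among the other E2 genes for broad initiation, *Ube2e3* had a log2 fold change of 0.57 and *Ube2e2* of 0.53, each with groups apart but below 1.5-fold. Both were called higher when the base value was subtracted and a pseudocount of 0.1, 0.5 or 1 added (log2 fold changes of 0.67 to 0.70 and of 1.01 to 1.43), *Ube2e2* being the lowest of the tested members at 2.33 to 3.00. *Ube2e1* stood at 5.38, 5.37 and 6.04 in naive and at 6.05, 5.87 and 5.76 in activated libraries, so that the groups overlapped through naive replicate 3. *Ube2l3*, which serves HECT and RING-between-RING ligases such as the linear chain complex, stood at 6.81, 6.84 and 7.17 in naive and at 7.10, 7.28 and 7.30 in activated libraries, groups that overlap through naive replicate 3. It had a log2 fold change of 0.29 (limma adjusted p = 0.096), and of -0.16 under quantile normalization. It shares 1670 exonic bases with *Ydjc* on the opposite strand, which rose by 2.67, and whether counting used strand is not stated in the sources used here. *Ube2w*, which modifies the N-terminus of proteins, had a log2 fold change of -0.30.

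All 6 tested members that build K48-linked chains, the signal for the proteasome, were called, 3 higher and 3 lower, against 52.8% of all genes tested, and related genes went opposite ways. At a 2-fold threshold *Ube2g2* and *Ube2r2* alone of these 6 were called. *Ube2g2* and *Ube2g1* are close relatives, *Ube2g2* serving degradation from the endoplasmic reticulum (ER) and *Ube2g1* lengthening chains on cullin-RING targets. *Ube2g2* stood at 5.13, 5.34 and 4.99 in naive and at 6.68, 6.54 and 6.45 in activated libraries and rose by 1.40 (SE 0.14, limma adjusted p = 1.6e-05). *Ube2g1* stood at 5.90, 5.84 and 6.45 in naive and at 5.30, 5.42 and 5.12 in activated libraries and fell by 0.79 (SE 0.18, limma adjusted p = 0.0032). The order of the pair was reversed in every library: the log2 ratio of *Ube2g2* to *Ube2g1* was -0.76, -0.50 and -1.46 in naive and 1.38, 1.13 and 1.33 in activated libraries.

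*Ube2j1* and *Ube2j2* encode E2 enzymes anchored in the ER membrane. *Ube2j1* stood at 6.28, 6.35 and 6.44 in naive and at 5.79, 5.66 and 5.47 in activated libraries and fell by 0.72 (limma adjusted p = 9.1e-04). *Ube2j2* stood at 4.59, 4.71 and 4.50 in naive and at 5.37, 5.13 and 5.20 in activated libraries and rose by 0.64 (limma adjusted p = 0.0015). *Ube2j1* remained the higher of both in all 6 libraries, by 1.64 to 1.94 in naive and 0.27 to 0.52 in activated ones. The call of *Ube2j2* was lost under median-of-ratios, quantile and upper-quartile scaling (0.42 to 0.52) and without activated replicate 1 (0.57), whereas that of *Ube2j1* was kept in all of these. Of 14 tested genes of ER-associated degradation, 3 were higher and 3 lower, or 42.9% called against 52.8% of all genes tested. *Nploc4*, a cofactor of the p97 ATPase, rose by 1.27, and *Edem3*, which trims sugars of misfolded proteins, fell by 1.19.

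*Ube2r2* and *Cdc34* encode the E2 enzymes of the SCF ligases, and only *Ube2r2* bears the family name. *Ube2r2*, on the plus strand of chromosome 4 from 41135743 to 41193380, stood at 6.66, 6.74 and 7.12 in naive and at 5.50, 5.42 and 5.33 in activated libraries and fell by 1.42 (SE 0.15, limma adjusted p = 2.5e-05). *Cdc34* stood at 5.23, 5.45 and 4.14 in naive and at 8.09, 8.17 and 8.21 in activated libraries and rose by 3.21 (SE 0.29, limma adjusted p = 1.0e-05). The log2 ratio of *Cdc34* to *Ube2r2* went from -1.43, -1.28 and -2.97 to 2.60, 2.75 and 2.88, a change of 4.64 (SE 0.55, exact two-sided permutation test, p = 0.1). This was the widest shift among the 12 related pairs compared, which were chosen after member values were seen. Over all 15 ratios tested, the groups were apart in 13, with an exact permutation p of 0.1 each and 0.12 after Benjamini-Hochberg adjustment. *Ube2k*, which builds K48-linked chains without a ligase in vitro, stood at 4.46, 4.39 and 4.38 in naive and at 5.31, 5.22 and 5.22 in activated libraries and rose by 0.83 on the log2 scale (limma adjusted p = 1.4e-04).

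**Figure D4:**
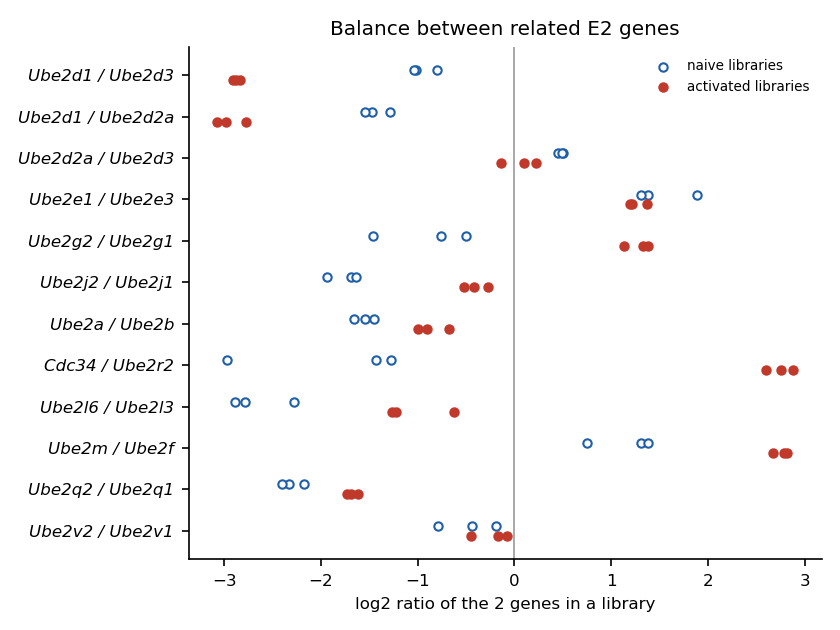
Log2 ratio (horizontal axis) of 12 pairs of related E2 genes in each of 3 naive (open circles) and 3 activated libraries (filled circles), with a line at equal levels. *Cdc34* to *Ube2r2* and *Ube2g2* to *Ube2g1* cross from below 0 in every naive library to above 0 in every activated library, and the groups overlap for *Ube2e1* to *Ube2e3* and *Ube2v2* to *Ube2v1*.

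*Ube2n*, which serves T cell receptor and NF-κB signaling, builds K63-linked chains together with the inactive variants encoded by *Ube2v1* and *Ube2v2*. *Ube2n* stood at 6.25, 6.21 and 6.56 in naive and at 7.02, 7.00 and 6.92 in activated libraries and rose by 0.64 (limma adjusted p = 0.0023). This call was lost under median-of-ratios (0.52), upper-quartile (0.43) and quantile scaling (0.23) and without naive replicate 2 (0.57). *Ube2v1* and *Ube2v2* had overlapping groups and log2 fold changes of 0.07 and 0.31. *Ube2v1* shares 1673 exonic bases with *Gm20431* on the same strand, which is not analysed here, so that its reads may be split. Of 16 partner genes of K63-linked and linear chains, 4 were higher and 4 lower, or 50% called against 52.8% of all genes tested. *Rad18*, the ligase for the sliding clamp, rose by 1.29 and *Otulin*, which removes linear chains, by 0.88, while *Cyld*, which removes K63-linked chains, fell by 0.96 and the ligase gene *Itch* by 0.84.

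*Ube2a* and *Ube2b* are the mouse forms of yeast Rad6 and serve damage tolerance with *Rad18* and ubiquitination of histone H2B with *Rnf20* and *Rnf40*. *Ube2b* stood at 6.70, 6.63 and 6.63 in naive and at 5.84, 6.12 and 6.03 in activated libraries and fell by 0.66 (limma adjusted p = 0.0012), below 1.5-fold without activated replicate 1 (-0.58). *Ube2a* stood at 5.04, 5.19 and 5.09 in naive and at 5.16, 5.21 and 5.03 in activated libraries, with a log2 fold change of 0.03 (SE 0.12, limma adjusted p = 0.82). The log2 ratio of *Ube2a* to *Ube2b* rose from -1.55 ± 0.11 (SD, n = 3) to -0.86 ± 0.16 (SD, n = 3), and *Ube2b* remained the higher in all 6 libraries. Of 10 partner genes for H2B, 2 were higher and 3 lower, or 50% called against 52.8% of all genes tested. The ligase genes *Rnf20* and *Rnf40* had log2 fold changes of -0.31 and 0.02.

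Of the large or less studied members, *Ube2o*, an E2 and E3 in one protein, stood at 3.24, 3.28 and 3.00 in naive and at 4.31, 3.64 and 3.68 in activated libraries. Its rise of 0.71 (limma adjusted p = 0.0064) leaned on activated replicate 1, without which it was 0.49 and not called. The call of *Ube2o* was also lost under upper-quartile scaling and without naive replicate 3 and activated replicate 1. *Ube2q1* and *Ube2q2* had groups that did not overlap but log2 fold changes of -0.27 and 0.36, below 1.5-fold. Counted over all members tested, every activated library was above every naive one in 14 and below in 10, against 43.9% and 32.9% of all genes tested (76.8% together), and the groups overlapped in 6.

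Of the E1 enzymes, 4 of 10 tested were higher and 1 lower, and *Uba1*, the main E1 for ubiquitin, had a log2 fold change of 0.13. Of 14 genes for ubiquitin and ubiquitin-like modifiers, 5 were higher and 2 lower. In both lists 50% were called, near the 52.8% of all genes tested. The polyubiquitin gene *Ubb* had a log2 fold change of -0.07 and *Rps27a*, which encodes ubiquitin fused to a ribosomal protein, of -0.31. *Urm1*, which modifies tRNA and proteins, rose by 1.60 and *Atg12*, of the autophagy system, fell by 1.22. Among 8 tested E2 or E2-like genes with other names, *Ufc1*, the E2 enzyme for UFM1, rose by 1.27 and *Birc6*, a giant E2 and E3 that restrains cell death, fell by 0.63, a call lost without naive replicate 1, naive replicate 3, activated replicate 2 or activated replicate 3 (-0.57, -0.57, -0.58 and -0.54). Over all 149 partner, substrate and proliferation genes tested, 61 were higher and 21 lower, or 55.0% called, near the 52.8% of all genes tested.

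Sequence copies limit some values. A copy of at least 90% identity over at least 50% of the coding sequence was found among other GENCODE transcripts for 15 of the 32 members, most often a pseudogene. Among them *Ube2l3* had 12 copies, *Ube2v1* 9, *Ube2n* 7, *Ube2d3* 6, *Ube2v2* 5, *Ube2d2a* 4, *Ube2h* 3 and *Ube2c* 2. For *Ube2s*, *Ube2d1*, *Ube2r2*, *Ube2m*, *Ube2l6*, *Ube2g1* and *Ube2g2* none was found at these limits. *Cdc34*, which is not a member, has a protein-coding copy, *Cdc34b*, at 95.2% identity over 100% of its coding sequence. How the counting treated reads that fit more than one place is not stated in the sources used here. The values of the 15 genes and of *Cdc34* stay uncertain to that extent.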

How the data were processed

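PolyA RNA of 6 libraries was sequenced. Per the methods and the submitters' processing notes, reads were aligned to mm10 with HISAT2 2.0.5, assembled with StringTie 1.3.3b and counted with featureCounts 1.5.0-p3. The table deposited by the authors holds FPKM after a log2 transform and, by its name, ComBat correction, with no pseudocount or batch stated in the sources used here. Column headers matched the sample labels. The replicates are described as biologically independent. Whether ComBat narrowed the spread between them is unknown, so that p-values measure only the spread left in the table.

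The deposited log2 values were fitted with limma 3.58.1 (eBayes with trend) in R 4.3.3, after a filter of 1 linear unit above the base value of 3.97 in at least 3 libraries, with p-values adjusted over 10173 genes. The study's own DESeq2 test needs counts and was not run. The fit was tested on simulated data. Single values were compared by exact two-sided permutation tests. Alternatives were pseudocounts, filters, scalings, no trend, a replicate block, libraries left out and other fold thresholds. Positions and copies come from GENCODE M21 (GRCm38) with BLAST 2.17.0, promoters from RefSeq (GRCm38.p6). Tables and figures were made with matplotlib 3.10.9, scipy 1.17.1, numpy 2.4.6 and pandas 2.3.3 under Python 3.11.15.

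The members and lists were chosen with earlier results of these data known, and the related pairs after member values were seen. By rule, values in every library were given for *Ube2c*, *Ube2s*, the 6 other called members with the largest rise and the 6 with the largest fall, the 3 highest members and those with close relatives, and partner genes were named where called with groups apart, up to 4 per list. *Pttg1*, *Rnf20*, *Rnf40*, E1 genes and modifiers were also named for their role, after values were seen. Some genes counted in the totals are not reported singly here.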

Additional observations from a re-analysis of the deposited data

How the results depend on the processing

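*Ube2c* and *Ube2s* were called higher in all 20 alternatives tried, with log2 fold changes of 3.83 to 4.36 and 2.15 to 2.65, and *Ube2l6*, *Ube2m*, *Ube2g2*, *Cdc34*, *Ube2h*, *Ube2d1*, *Ube2r2*, *Isg15* and *Uba7* kept their calls in all of them too. The members called higher numbered 10, but 6 under upper-quartile scaling, and 5 higher and 3 lower at a 2-fold threshold. Of the 17 called members, 13 were kept under upper-quartile scaling, 14 under quantile normalization, 15 under median-of-ratios scaling, 14 without activated replicate 1, and 14 without naive replicate 3 and activated replicate 1. Partner, substrate and proliferation genes called lower numbered 21, but 10 at a 2-fold threshold and 32 with none. The mitotic pair exceeded the other members by 3.06 on the log2 scale, and by 2.84 to 3.28 with 1 library left out. The median log2 fold change of all genes tested was 0.13 as deposited, 0.01 after median-of-ratios, 0.00 after quantile and -0.08 after upper-quartile scaling, so that small changes depend on the scaling.

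Deviations from the group means correlated at -0.01, -0.05 and -0.14 between libraries of the same replicate number. Because ComBat may have removed shared deviations, these values cannot tell whether replicates were paired. With the replicate number as a block, 10 members were higher and 7 lower, with the same 17 genes. Depth is unknown and limits what can be said of *Ube2d2b* and *Ube2ql1*, close to the base value.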
